A study of Mus musculus with 6 samples.

Results

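The transcriptome of MLO-Y4 cells without flow was described from the 3 sham-treated, non-flow control cultures of a fluid-flow experiment. Genes were included when their mean over these 3 libraries was at least 1 FPKM (fragments normalized for transcript length and library depth), which held for 11864 of 39174 features in the table, or 30.3%. Of the included features 10463 were protein-coding genes, out of 21451 measured protein-coding genes, or 48.8%. The other 1401 were short or non-coding features or had no matched annotation.

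MLO-Y4 is a mouse cell line with osteocyte-like dendritic shape, derived from the long bones of an animal carrying the SV40 large T antigen under an osteocalcin promoter. The study set cells that received 2 h of oscillating flow (shear stress 10 dyn/cm²) against sham-treated cells collected alongside, with 3 libraries of each. Flow was followed by 2 h of rest in new medium. An incubation of 2 h after treatment also applied to the sham-treated cells, so these were handled and not undisturbed. All cells had been plated 48 h earlier on glass coated with type I collagen, in medium with 2.5% calf serum and 2.5% fetal bovine serum, and were about 60% confluent. The flow libraries were not used here, and one immortalized line in serum stands for the osteocyte in every value below.

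Osteocytes are the terminally differentiated descendants of osteoblasts, buried in bone matrix and joined to one another by gap junctions along dendrites. They sense load and signal to osteoblasts and osteoclasts through secreted factors such as sclerostin, RANKL and osteoprotegerin, and they regulate phosphate through FGF23. Early osteocytes carry podoplanin, PHEX and DMP1, whereas sclerostin and FGF23 mark the mature embedded cell.

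The depths by which FPKM was scaled, read from the steps of the lowest FPKM values, were 17910000, 18080000 and 19010000 reads for the 3 libraries. Whether these are reads sequenced or normalized library sizes is not given. In each library 11668 to 11697 features reached 1 FPKM. For an effective transcript length of 1 kb, 3 reads corresponded to 0.158 to 0.168 FPKM in these libraries, which is the limit that a count of 0 allows and covers counting error only. Across the 10463 protein-coding genes the log2(FPKM + 1) values of any 2 cultures correlated at Pearson r = 0.984 to 0.988, a description across genes, which are not independent replicates. Cultures are numbered 1 to 3 in accession order, with no order implied, and means are given ± SD over the 3 cultures (n = 3). In bulk RNA, fewer cells of a kind and less RNA per cell cannot be told apart.

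Transcript levels were concentrated in few genes. The median of included protein-coding genes was 17.2 FPKM, with quartiles of 6.72 and 42.9. A level of 10 FPKM was reached by 6812 of them, 100 FPKM by 1100 and 1000 FPKM by 70. The 10 highest protein-coding genes took 10.1 ± 1.07% of the summed FPKM of protein-coding genes, and the 100 highest took 29.5 ± 1.19%. Over all features the 100 highest took 34.3 ± 1.82%. At the threshold, Gm6531 and Trim66 lay just inside with means of 1.00 FPKM each, and Nat14 and Zfp708 just outside with 0.999 each.

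The highest nuclear-encoded protein-coding gene was Spp1, which encodes osteopontin, a phosphorylated glycoprotein of bone matrix and a cytokine. Spp1 was at 6868, 7054 and 6944 FPKM in cultures 1 to 3, a spread of 1.34% (coefficient of variation, CV). Of the protein-coding genes only the mitochondrial transcript mt-Atp8 ranked above it, at 29124, 18656 and 19052 FPKM, on a transcript of 204 nt for which the length correction in FPKM is large. Behind Spp1 the next nuclear genes were the elongation factor Eef1a1 (4994, 5395 and 5368), the intermediate filament protein vimentin, Vim (5572, 4076 and 4899), ferritin heavy chain, Fth1 (4178, 4683 and 4752), and beta-actin, Actb (3999, 3781 and 3851). Vimentin was highest in culture 1 and lowest in culture 2, while beta-actin differed by 2.87% (CV). The 30 highest genes also held the small calcium-binding proteins S100a4 (2545 ± 591) and S100a6 (1680.2 ± 105), the lectin Lgals1 (2328 ± 66.3) and the metallothionein Mt2. Mt2, a metal-binding stress protein, was at 1919.7, 994 and 2408 FPKM and so varied most of these, with culture 3 2.42 times culture 2. Several of these genes (Eef1a1, Fth1, Actb, Gapdh and the ribosomal proteins) have near-identical processed copies elsewhere in the genome, so their values depend on how the authors assigned shared reads.

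**Figure D1:**
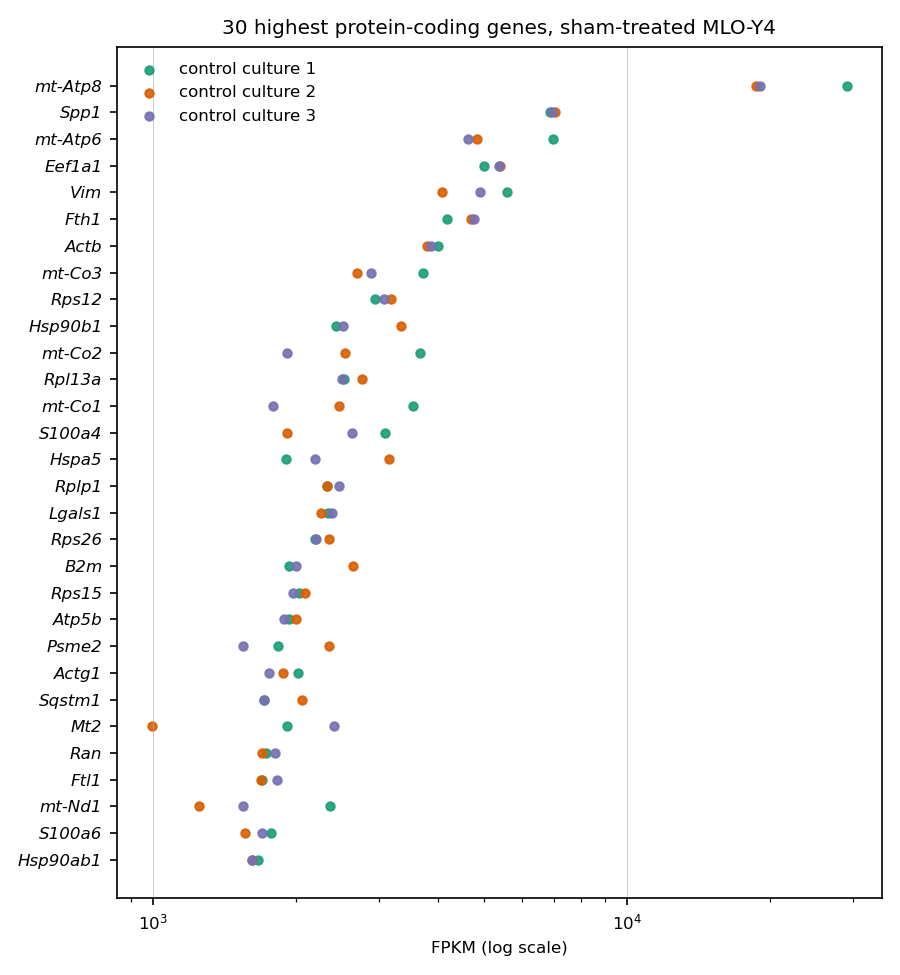
The 30 protein-coding genes with the highest mean, each as 3 points for control cultures 1 to 3 on a logarithmic FPKM axis. Spp1 lies at about the same level in all 3 cultures, whereas the mitochondrial transcripts mt-Co1, mt-Co2 and mt-Nd1 and the metallothionein Mt2 are spread out.

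Vim has a TATA-type element close upstream of its start, shown because this element is uncommon among expressed genes. The sequence is RefSeq's for GRCm38.p6 (mm10), chr2:13574251-13574310, plus strand, positions -60 to -1 from the annotated start, with TATAAA in capitals.
Vim: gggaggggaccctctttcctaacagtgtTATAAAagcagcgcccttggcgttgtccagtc
TATAAA, searched on both strands of the 250 bases before the start, occurred in 7.33% of the 8457 included protein-coding genes with a promoter in the table, and in 19.6% of the 8228 below 1 FPKM. Among the 69 of the 100 highest genes with a promoter, 17.4% held it. The GC-box core GGGCGG showed the opposite order, at 66.5% of included genes and 28.1% of those below 1 FPKM, and the median GC content of these windows was 60.4% and 50.0%. Over all 32851 promoters in the table TATAAA occurred in 12.4% and GGGCGG in 32.7%. These are matches of letters, not binding sites.

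Of 18 osteocyte marker genes 11 reached 1 FPKM, against 48.8% of all protein-coding genes. They included genes of cell shape and junctions and 2 markers of early osteocytes, Pdpn and Phex. Gja1, which encodes the gap-junction protein connexin 43, was at 472, 414 and 503 FPKM. Pdpn, which encodes podoplanin (E11), a membrane protein of osteocyte dendrites, was at 412, 357 and 420.4. Phex, an endopeptidase mutated in X-linked hypophosphataemia, was at 4.80, 5.66 and 4.84. All 3 genes were close in the 3 cultures, with connexin 43 and podoplanin lowest in culture 2. The actin regulators Capg (462 ± 24.9) and Dstn (123 ± 5.89), the hyaluronan receptor Cd44 (184 ± 32.5), the membrane-bound metalloproteinase Mmp14 (131 ± 15.6) and the hypoxia-inducible chaperone Hyou1 (169 ± 40.7) were all above 100 FPKM. The scavenging chemokine receptor Ackr3 was at 12.9, 12.6 and 23.8 FPKM, highest in culture 3. The homeobox factor Irx5 (10.1 ± 0.847) and the potassium channel Kcnk2 (3.79 ± 1.10) complete the 11.

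The mature markers Sost and Fgf23 were not detected, nor was the early marker Dmp1. Sost (sclerostin, the secreted WNT inhibitor), Dmp1 (a matrix protein of mineralization), Mepe (a matrix phosphoglycoprotein), Fgf23 (the phosphate-regulating hormone), Dkk1 (another WNT inhibitor) and Ptprz1 (a receptor phosphatase) were each listed at 0 in all 3 cultures. The remaining marker, the secreted protein reelin, Reln, did not exceed 0.0433 FPKM. A count of 0 allows up to 0.0898 FPKM for Sost, 0.0653 for Dmp1, 0.113 for Mepe, 0.104 for Fgf23, 0.0752 for Dkk1 and 0.0213 for Ptprz1 in the shallowest library. An exact 0 can be a failed estimate: mt-Nd4l was listed at 0 in all 3 cultures while its neighbour mt-Nd4 was at 1484, 966 and 769 FPKM. The second deposited table also lists these 6 markers at 0 in its 3 control columns. It comes from the same libraries and lists mt-Nd4l at 0 there too, so it cannot tell absence from a failed estimate.

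Genes of the bone-matrix phosphoglycoprotein cluster on chromosome 5 thus lay at opposite ends of the scale. Spp1 (chr5:104435118-104441050, mm10) led the nuclear protein-coding genes. Dmp1 (chr5:104202613-104214102), Ibsp (chr5:104299171-104311469), which encodes bone sialoprotein, and Mepe (chr5:104325329-104338611) lie upstream of it on the same strand and were listed at 0.

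Of the osteoblast markers 13 of 22 reached 1 FPKM, or 59.1%, beside 48.8% of all protein-coding genes. Besides Spp1, the collagen-binding protein Sparc (osteonectin) was at 501, 557 and 507 FPKM. Col1a1 and Col1a2, the chains of type I collagen, were at 169, 140.2 and 151 and at 123, 111 and 109. Runx2, the factor that commits cells to the osteoblast lineage, was at 8.42, 8.22 and 9.32. These 4 genes were near equal in the 3 cultures. Sp7 (osterix), which acts downstream of RUNX2, was at 0.227, 0.245 and 0.388 FPKM, above its 3-read limit of 0.0578 but below the threshold in each culture. Bglap, which encodes osteocalcin, was at 7.88, 9.26 and 9.95, and its near-identical neighbour Bglap2 at 4.78, 4.53 and 8.61, so reads may have been divided between them. Alkaline phosphatase, Alpl, needed for mineralization, was at 7.31, 2.15 and 3.42, highest in culture 1. The homeobox factor Dlx3 was at 59.5, 60.2 and 20.6, with culture 3 apart from the other cultures. Dlx5, Msx2, Ibsp and the parathyroid hormone receptor Pth1r were at or near 0, the last at 0.0829, 0.0547 and 0.182 FPKM.

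Of the fibroblast and stromal markers 13 of 17 reached 1 FPKM (76.5%), and of the contractile markers 7 of 10 (70.0%), beside 48.8% of all protein-coding genes. Fibronectin, Fn1, was at 1282, 1113 and 1075, and the limb mesenchyme factor Prrx1 at 103, 106 and 108. Prrx1 differed by 2.37% (CV). The platelet-derived growth factor receptors Pdgfra (25.1 ± 2.49) and Pdgfrb (19.3 ± 3.68) and the stromal antigen Ly6a (Sca-1, 187 ± 87.4) were included, whereas Thy1, a common fibroblast antigen, was listed at 0. Of the contractile genes the tropomyosins Tpm1 (353 ± 23.6) and Tpm2 (313 ± 41.0) were high, smooth muscle actin Acta2 was at 18.4, 20.1 and 23.4, and Myh11 and Cnn1, which define mature smooth muscle, stayed below 0.03 FPKM in each culture.

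Most markers of unrelated cell types were under 1 FPKM. None of 8 epithelial markers reached 1 FPKM, and their summed level was 0.0653 to 0.218 FPKM per culture. One of 11 macrophage and leukocyte markers did, the lipopolysaccharide co-receptor Cd14 (7.77, 7.33 and 7.59), while Itgam, Fcgr1 and Emr1 were listed at 0 and Ptprc (CD45) was listed above 0 only in culture 1, at 0.0142, under its 3-read limit of 0.0302. One of 8 endothelial markers did, the secreted protein Egfl7 (1.89 ± 0.869), with Kdr, Tie1 and Emcn listed at 0. Of 8 neural markers the intermediate filament nestin, Nes (88.8, 111 and 51.7), and Tubb3 (5.11 ± 0.772) did, and Snap25, Syp and Gfap were listed at 0. Nestin was highest in culture 2 and lowest in culture 3. The cartilage factors Sox9 (14.8 ± 3.34) and Sox5 (22.5 ± 5.40) were present, whereas the cartilage collagen Col2a1 was listed at 0 and aggrecan, Acan, was at 0.0154 in 1 culture. Adipocyte genes gave 4 of 8, near the 48.8% of all protein-coding genes. These were Pparg (17.8 ± 3.80), lipoprotein lipase, Lpl (34.4 ± 2.02), Cebpa (mean 7.73) and Fabp4 (mean 4.13), with adiponectin below 0.4 FPKM. Pericytes gave 2 of 6 (1 without culture 2), skeletal muscle 2 of 7 (1 without culture 1 or without culture 2) and tendon 1 of 5. In the second deposited table the skeletal muscle and tendon lists gave 0, the neural list 1 and the endothelial list 3. The osteoclast list gave 2 of 9. Its high member was the collagen-degrading protease cathepsin K, Ctsk, at 194, 210.0 and 216 FPKM, while Acp5, Calcr, Dcstamp and Tnfrsf11a (RANK) were at or near 0.

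**Figure D2:**
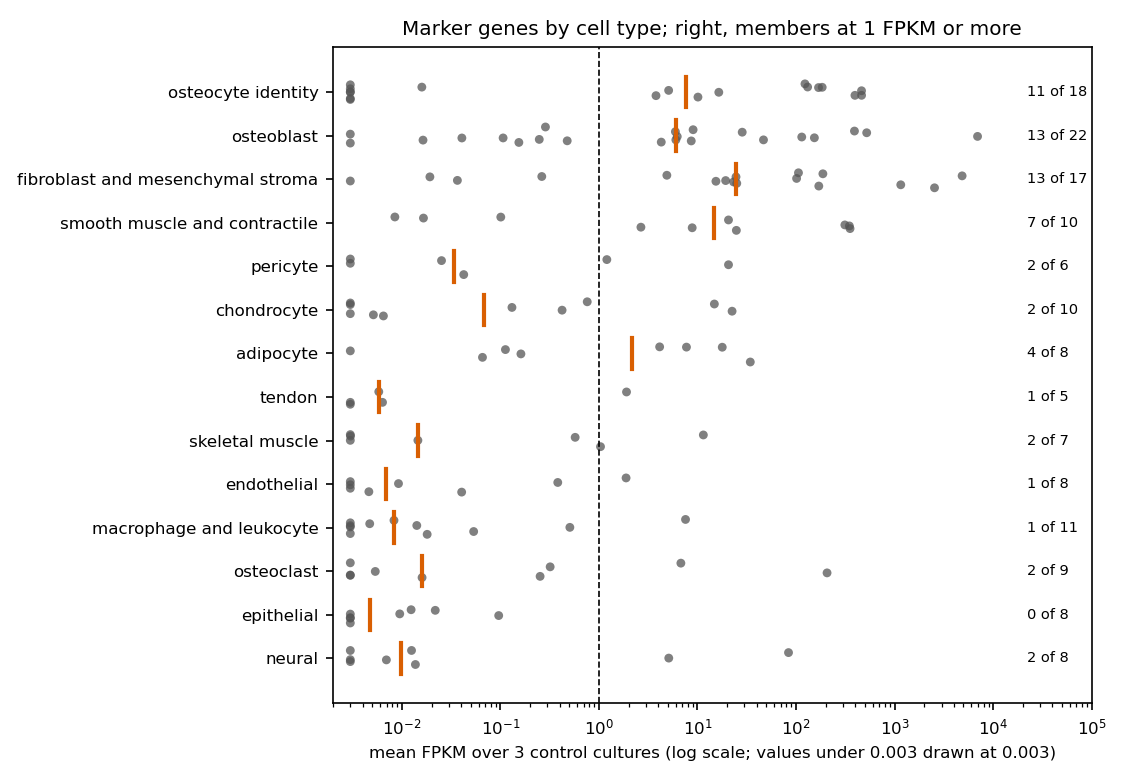
Mean FPKM over the 3 control cultures for the markers of each cell type, on a logarithmic axis with the 1 FPKM threshold dashed, 1 point per gene (vertical scatter has no meaning) and an orange bar at the list median. Mesenchymal, osteoblast and osteocyte lists extend above 100 FPKM but keep members at the left edge, and the epithelial list lies wholly left of the threshold.

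Collagen and collagen-processing genes were included in 15 of 17 cases, or 88.2%, beside 48.8% of all protein-coding genes. Besides type I collagen, the fibril collagen Col3a1 was at 206, 149 and 156 and Col5a2 at 88.1, 85.0 and 76.1 FPKM. The collagen-specific chaperone Serpinh1 (HSP47), at 504, 589 and 527, stood above every collagen chain listed here. Lysyl oxidase, Lox, which crosslinks collagen, was at 372, 201 and 288, highest in culture 1, and its relative Loxl3 at 149, 173 and 133. Loxl2 and the cartilage-type collagen Col11a1 stayed below 0.4 FPKM. Of basement membrane and other collagens 15 of 18 were included, led by Col6a3 (142 ± 24.7), Col8a1 (73.9 ± 14.9) and the laminin chain Lamc1 (57.1 ± 6.99). In this list 9 of the 15 were highest in culture 1, against 32.3% of all included protein-coding genes.

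Of 27 matrix glycoproteins and proteoglycans 22 were included, or 81.5%, beside 48.8% of all protein-coding genes. After Spp1 and fibronectin came Ecm1 (747, 872 and 852), an extracellular glycoprotein, then Sparc, given above, and Ctgf (361, 419 and 407), a matricellular target of YAP signalling. Biglycan, Bgn, a small proteoglycan of bone, was at 226, 253 and 294. Decorin, Dcn, was lower, at 15.4 ± 1.62, and lumican, periostin, elastin, versican and tenascin C stayed under 1 FPKM. Fibulin 2, Fbln2, was at 33.8, 16.2 and 44.3, highest in culture 3.

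Proteases that remodel collagen were expressed with their inhibitors, 19 of 22 members in all, or 86.4%, beside 48.8% of all protein-coding genes. The gelatinase Mmp2 was at 137, 123 and 135, and its activator Mmp14 at 144, 114 and 136. The inhibitor Timp2, which takes part in that activation, was at 344, 223 and 303, and Timp1 at 105, 106 and 110.3. All 4 were above 100 FPKM in each culture. The osteoblast and chondrocyte collagenase Mmp13 was low, at 2.77, 6.09 and 3.63. The lysosomal cathepsins Ctsb (234 ± 12.5), Ctsd (208 ± 12.8) and Ctsl (153 ± 15.4) were at levels near that of cathepsin K.

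At the cell surface, 8 of 19 integrin subunits were included, or 42.1%, beside 48.8% of all protein-coding genes. Itgb1, the common beta chain, was at 218, 211 and 204 FPKM. Its partners were Itga5 (111, 98.9 and 87.5), which pairs with it as a fibronectin receptor, Itga6 (83.6, 71.3 and 83.9), a laminin receptor chain, and Itgav (47.4, 40.1 and 42.8), a vitronectin receptor chain. The chain Itgb5, at 147, 152 and 159, exceeded Itgb3, the other alpha-v partner studied in osteocytes, which was at 0.869, 0.675 and 1.31. Itgb7, known mainly from lymphocytes, was at 96.0, 136 and 115. The collagen-binding chains Itga1, Itga2, Itga10 and Itga11 were all under 1 FPKM.

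Adhesion receptors and junction proteins gave 11 of 23, or 47.8%, near the 48.8% of all protein-coding genes. The tetraspanins Cd63 (534 ± 18.2), Cd81 (175 ± 12.4) and Cd9 (140.1 ± 17.8), connexin 43, podoplanin and the immunoglobulin-type receptor Vcam1 (140.0, 142 and 124) were all above 100 FPKM. Pannexin 1, Panx1, an ATP-release channel, was at 9.20, 8.55 and 11.4, and Panx3 was listed at 0. N-cadherin, Cdh2, and E-cadherin, Cdh1, were listed at 0, and the osteoblast cadherin Cdh11 was at 0.139, 0.192 and 0.131 FPKM.

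Mechanosensitive and calcium-handling channels gave 17 of 22, or 77.3%, beside 48.8% of all protein-coding genes. Piezo1, a stretch-gated cation channel, was the highest, at 126, 133 and 95.4 FPKM, lowest in culture 3. Its paralog Piezo2 was at 0.601, 0.398 and 0.552. Trpv4, another channel opened by swelling and shear, was at 7.77, 7.64 and 7.69 and so differed by 0.843% (CV). The ATP-gated channel P2rx4 (25.8 ± 4.33) was above P2rx7 (2.57 ± 0.341), and the polycystin Pkd2 (17.4 ± 0.603) above Pkd1 (5.39 ± 0.465). The voltage-gated calcium channel chains Cacna1c and Cacna1h were at or near 0, whereas their auxiliary subunit Cacna2d1 was at 1.83 ± 0.246.

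Receptor tyrosine kinases gave 16 of 25, or 64.0%, beside 48.8% of all protein-coding genes. Axl, a receptor for GAS6, was at 131, 142 and 121, and Ddr2, a receptor for fibrillar collagen, at 106, 109 and 103. Ephrin receptor Epha2 was at 101, 117 and 73.6, lowest in culture 3. Fgfr1 was at 82.5, 63.8 and 80.8, while Fgfr2 and Fgfr3 stayed under 1 FPKM, so FGFR1 supplied nearly all measured FGF receptor mRNA of these 3 genes. Nuclear and hormone receptors gave 11 of 20, or 55.0%, near that 48.8%. The retinoic acid receptor Rarg was at 204, 165 and 185, the glucocorticoid receptor Nr3c1 at 24.4, 25.5 and 26.0, and the vitamin D receptor Vdr at 9.43, 11.1 and 12.9. The oestrogen receptor Esr1 was at 1.64, 2.95 and 2.12. Of the prostaglandin E2 receptors Ptger4 was at 2.89, 1.95 and 7.74, highest in culture 3, Ptger1 at 3.18, 3.32 and 3.23 and Ptger3 at 1.26, 1.02 and 1.90, while Ptger2 did not exceed 0.0317 FPKM in a culture.

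**Figure D3:**
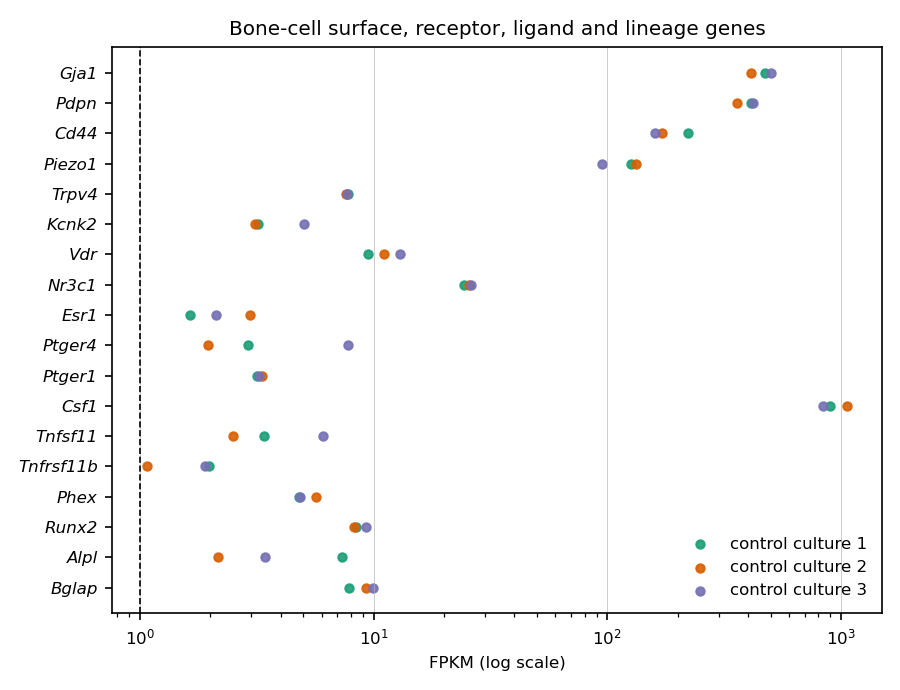
FPKM in each of the 3 control cultures, on a logarithmic axis, for genes of bone-cell surface, receptors, ligands and lineage, with the 1 FPKM threshold dashed. Csf1, Gja1 and Pdpn lie above 300 FPKM in all 3 cultures, Tnfsf11, Tnfrsf11b and Alpl lie below 10, and Ptger4 and Tnfsf11 are highest in culture 3.

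Among secreted regulators of osteoclasts, the survival factor Csf1 (M-CSF) was at 896, 1062 and 840.4 FPKM. Tnfsf11, which encodes the osteoclast differentiation factor RANKL, was at 3.40, 2.50 and 6.07, highest in culture 3. Tnfrsf11b, which encodes its decoy receptor osteoprotegerin, was at 1.98, 1.08 and 1.91. In each culture RANKL was above osteoprotegerin, and Csf1 was more than 100 times either. Il34, the other ligand of the CSF1 receptor, was at 4.04, 3.93 and 3.47 in this table, and its mean in the second table was 2.09 times as high.

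Growth factors and their binding proteins gave 19 of 30, or 63.3%, beside 48.8% of all protein-coding genes. Behind Csf1 came progranulin, Grn (775, 1087 and 795), keratinocyte growth factor, Fgf7 (135, 135 and 116), and pleiotrophin, Ptn (115, 111 and 111). Pleiotrophin and FGF7 were near equal in the cultures, and progranulin was highest in culture 2. Vegfa, the angiogenic factor, was at 48.8, 67.0 and 91.0, with every culture apart and culture 3 highest. The neurotrophin Bdnf was at 18.1, 17.2 and 24.3, highest in culture 3. The insulin-like growth factors Igf1 and Igf2 were at or near 0, and of their binding proteins Igfbp4 (111 ± 22.8) and Igfbp6 (108 ± 5.68) were high whereas Igfbp2 and Igfbp3 were listed at 0.

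TGF-beta and BMP regulators gave 10 of 22, or 45.5%, near the 48.8% of all protein-coding genes. Tgfb1 was at 54.6, 55.6 and 54.4 FPKM, and its latency protein Ltbp1 at 113, 112 and 93.8. The BMP antagonist Grem1 (gremlin) was at 118, 119 and 124, while Bmp2, Bmp4 and the antagonist noggin, Nog, were listed at 0. Inhba, the activin A chain, was at 24.6, 36.6 and 37.7, and Fstl1, a follistatin-like secreted protein, at 496, 495 and 486. WNT ligands and antagonists gave 3 of 24 (1 in the second deposited table), all antagonists: Dkk3 (14.2, 8.96 and 10.6), Sfrp4 (1.26, 1.03 and 1.52) and Dkk2 (1.40, 1.14 and 1.08). No WNT ligand of the 14 on the list reached 0.3 FPKM in a culture.

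Chemokines and cytokines gave 22 of 29, or 75.9%, beside 48.8% of all protein-coding genes. Cxcl10, an interferon-inducible attractant of T cells, was at 657, 1081 and 1146 FPKM, lowest in culture 1. Ccl5 was at 442, 801 and 435, highest in culture 2. The monocyte attractants Ccl2 (438, 659.6 and 527) and Ccl7 (220.1, 312 and 293) were also highest in culture 2. Over the list, 14 of 22 were highest in culture 2, against 34.7% of all included protein-coding genes. Il6 was low, at 1.07, 1.68 and 2.08, and Il1b and Cxcl12 were listed at 0. The iron-binding protein lipocalin 2, Lcn2, was at 1.49, 10.1 and 3.46 and so differed between cultures 1 and 2 by 6.77 times. In the second deposited table Lcn2 was at 4.09, 9.47 and 3.86 FPKM, a smaller difference, with culture 3 lowest.

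All 19 interferon-stimulated genes were included, beside 48.8% of all protein-coding genes. Their median was 172 FPKM, beside 17.2 for all included protein-coding genes. Isg15, a ubiquitin-like protein, was at 908, 982 and 898, and Ifit1, an RNA-binding antiviral protein, at 366, 442 and 467. Irf7, the factor that amplifies interferon transcription, was at 536, 911 and 472, highest in culture 2. In all, 16 of the 19 were highest in culture 2, against 34.7% of included protein-coding genes.

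Several promoters of these genes share a sequence feature, and those of Ifit1, Ifit3, Isg15 and the chemokine gene Cxcl10 are shown for it. In these runs of RefSeq sequence (GRCm38.p6, mm10) the interferon-type repeat TTTCNNTTTC, on either strand and with overlapping matches joined, is in capitals. On the reverse-complement reading it appears as GAAANNGAAA.
Ifit1: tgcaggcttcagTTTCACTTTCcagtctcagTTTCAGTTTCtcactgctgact
Ifit3: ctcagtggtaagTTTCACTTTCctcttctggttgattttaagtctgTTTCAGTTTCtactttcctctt
Isg15: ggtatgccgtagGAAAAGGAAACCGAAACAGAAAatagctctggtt
Cxcl10: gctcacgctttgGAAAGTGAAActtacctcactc
These stretches are at chr19:34640773-34640825 (plus strand, -116 to -64 from the start) for Ifit1 and chr19:34583361-34583428 (plus strand, -168 to -101) for Ifit3. Those of Isg15 and Cxcl10 are at chr4:156200863-156200908 (minus strand, -90 to -45) and chr5:92349081-92349114 (minus strand, -225 to -192). Of the 18 interferon-stimulated genes annotated as protein-coding, 14 had a RefSeq promoter, and 8 of these held the repeat within 250 bases upstream. The share was 57.1%, beside 3.38% of included protein-coding genes and 2.98% of all 32851 promoters. Ifit1 and Ifit3 carry it at 2 separate places, and the capitals of Isg15 join overlapping copies.

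Transcription factors of mesenchyme and signalling gave 34 of 39, or 87.2%, beside 48.8% of all protein-coding genes. Atf4, the stress factor that also drives osteoblast genes, was at 342, 429.6 and 404. The Hippo effectors Yap1 (42.2, 42.4 and 44.5) and Wwtr1 (TAZ, 33.2, 38.2 and 38.0) and their partner Tead1 (26.9, 26.4 and 22.7) each had a CV under 9%. Twist1 (28.5 ± 1.69), Twist2 (24.6 ± 1.45), Snai2 (24.9 ± 1.65), Zeb1 (19.4 ± 1.76) and Zeb2 (26.4 ± 2.14), the mesenchymal repressors, were between 19.4 and 28.5 FPKM. Their relative Snai1 was at 33.4, 27.9 and 12.3, lowest in culture 3. Runx1 (15.6 ± 2.67) was above Runx2 (8.65 ± 0.587), and Runx3 and the WNT effector Lef1 were at or near 0, while Tcf7l2, another effector of that pathway, was at 8.46 ± 1.91. The hypoxia factor Hif1a was at 18.6, 15.9 and 20.0 here, but its mean in the second deposited table was 3.20 times as high.

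Among 38 measured HOX genes 18 were included, or 47.4%, near the 48.8% of all protein-coding genes, and 8 reached 5 FPKM. HOX genes encode homeobox factors that keep a record of position along the body and limb axes. In the A cluster Hoxa11 was at 22.1, 19.0 and 23.1, Hoxa10 at 23.6, 19.4 and 18.8 and Hoxa9 at 22.9, 22.0 and 14.9. These were the highest HOX genes by mean here, though their values overlapped those of Hoxd8. In the second deposited table Hoxd8 had a mean of 20.96, above Hoxa11 (20.48) and Hoxa9 (14.86) and near Hoxa10 (21.02). The most distal member of the A cluster, Hoxa13, was at 1.10, 0.620 and 0.626 FPKM. In the C cluster Hoxc10 led (16.3, 12.2 and 17.7), with Hoxc8 and Hoxc9 under 1 FPKM beside it. In the D cluster Hoxd8 (16.5, 14.7 and 18.9) and Hoxd9 (8.10, 7.63 and 8.64) led, and Hoxd11, Hoxd12 and Hoxd13 were under 1 FPKM. The B cluster had a single included member, Hoxb6 (2.88, 2.37 and 1.85), and Hoxb1, Hoxb2, Hoxb3 and Hoxb9 were listed at 0. Antisense transcripts lie inside these clusters, and without known strand use their reads cannot be told apart from those of the HOX genes.

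The cells expressed the machinery of division. All 24 cell cycle genes were included, beside 48.8% of all protein-coding genes. Cdk4 was at 995, 977 and 987, Ccnd1 (cyclin D1) at 266, 231 and 215 and the mitotic kinase Cdk1 at 349, 289 and 276 FPKM. The proliferation antigen Mki67 was at 24.6 ± 4.92, highest in culture 1. The tumour suppressor Trp53 was at 183, 209 and 172 and its target Cdkn1a (p21) at 54.4, 70.0 and 82.6, while the inhibitors Cdkn2a and Cdkn2b, which adjoin each other on chromosome 4, were both listed at 0. Actin and its regulators gave 26 of 27, beside that 48.8%, with a median of 333 FPKM among those included. The exception was Myh10, a nonmuscle myosin chain, at 0.177, 0.155 and 0.0652, whereas its paralog Myh9 was at 233, 218 and 170.1. Chaperones of the endoplasmic reticulum were among the highest genes, with Hsp90b1 (GRP94) at 2431, 3336 and 2511 and Hspa5 (BiP) at 1912, 3144 and 2195. Both were highest in culture 2, as were 12 of the 16 included chaperones, against 34.7% of included protein-coding genes. The inducible heat shock genes Hspa1a and Hspa1b, near-identical copies, were below 1 FPKM on average.

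Spread between cultures was small for most genes. The median CV was 9.83% over the 10463 protein-coding genes, with quartiles of 5.63% and 17.4%, and 8.11% over the 6812 at 10 FPKM or more. Counting error alone would give a median of 2.35% over the latter. Among the steadiest were the lipid transfer protein Stard3 (24.5, 24.6 and 24.6) and DNA ligase Lig1 (67.0, 67.1 and 67.4). At 10 FPKM or more, 232 genes, or 3.41%, had a CV over 30%. Of these, 59 were highest in culture 1, 82 in culture 2 and 91 in culture 3. Over all included protein-coding genes the shares highest in cultures 1 to 3 were 32.3%, 34.7% and 33%. Some of the 232 reached a mean of 10 FPKM only through their highest culture, so the counts depend partly on that filter. Examples in culture 3 were Apold1 (5.66, 7.22 and 27.6) and Bhlhe41 (6.83, 7.94 and 28.2). With 1 library per culture and each culture from a separate day, culture and day cannot be told apart, and no test between cultures was possible.

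Immediate-early genes, the transcription factors induced within minutes by stimuli such as serum, were among them. Of the 13 on the list at 10 FPKM or more, 8 had a CV over 30%, beside 3.41% of protein-coding genes at that level. Egr1, 1 of these 8, reached a mean of 10 FPKM only through culture 3, the culture that set its CV. All 21 on the list were included, beside 48.8% of all protein-coding genes. Of these 21, 17 were highest in culture 3, against 33% of included protein-coding genes. Fos, Egr2 and Egr3 reached a mean of 1 FPKM only through culture 3, so for them the threshold selected a high value there. Of the 18 members at 1 FPKM or more in the mean of cultures 1 and 2, 14 were highest in culture 3, beside 32.5% of protein-coding genes chosen that way. Egr1, a zinc-finger factor, was at 10.7, 8.20 and 218 FPKM. Fos, the AP-1 subunit, was at 0.409, 0.521 and 13.7, and Fosb at 1.48, 2.80 and 12.1. Culture 3 stood apart for all 3, at more than 20 times either other culture for Egr1 and Fos. The second deposited table gave 8.21, 7.82 and 199 FPKM for Egr1. Cyr61, Dusp1, Zfp36 and Plk2 are not on the list and were named because their CV was among the 15 highest. Cyr61, a secreted matricellular protein, was at 95.8, 100.001 and 709, and the phosphatase Dusp1, which switches off MAP kinases, at 11.8, 13.5 and 42.3. The mRNA-destabilizing protein Zfp36 was at 18.4, 19.7 and 56.9 and the kinase Plk2 at 54.1, 73.2 and 204. Of the list itself, some members were nearer together, such as Fosl1 (326, 357 and 425) and Klf2 (7.49, 6.81 and 7.72). Klf10 (25.7, 26.3 and 14.2) was lowest in culture 3.

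The TATA-type promoters of Fos and Cyr61 are shown because both genes were among those that differed most between cultures. Each run covers positions -60 to -1 (RefSeq, GRCm38.p6), with TATAAA in capitals, at chr12:85473830-85473889 on the plus strand for Fos and chr3:145649986-145650045 on the minus strand for Cyr61.
Fos: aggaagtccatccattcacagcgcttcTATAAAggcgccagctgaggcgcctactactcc
Cyr61: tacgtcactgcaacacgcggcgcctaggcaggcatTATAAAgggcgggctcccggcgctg
Of the 175 genes with a CV over 30% and a promoter in the table, 13.7% held TATAAA within 250 bases, beside 7.33% of all included protein-coding genes. The serum response element (CArG box) was in 8 of these 175, or 4.57%, and in 5 of the 73 that were highest in culture 3, or 6.85%, beside 1.38% of included genes and 1.47% of all promoters. These counts are small, and membership in the groups was chosen from the values. Of the 15 genes of the immediate-early list with a promoter, 2 held TATAAA and 1 the serum response element.

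**Figure D4:**
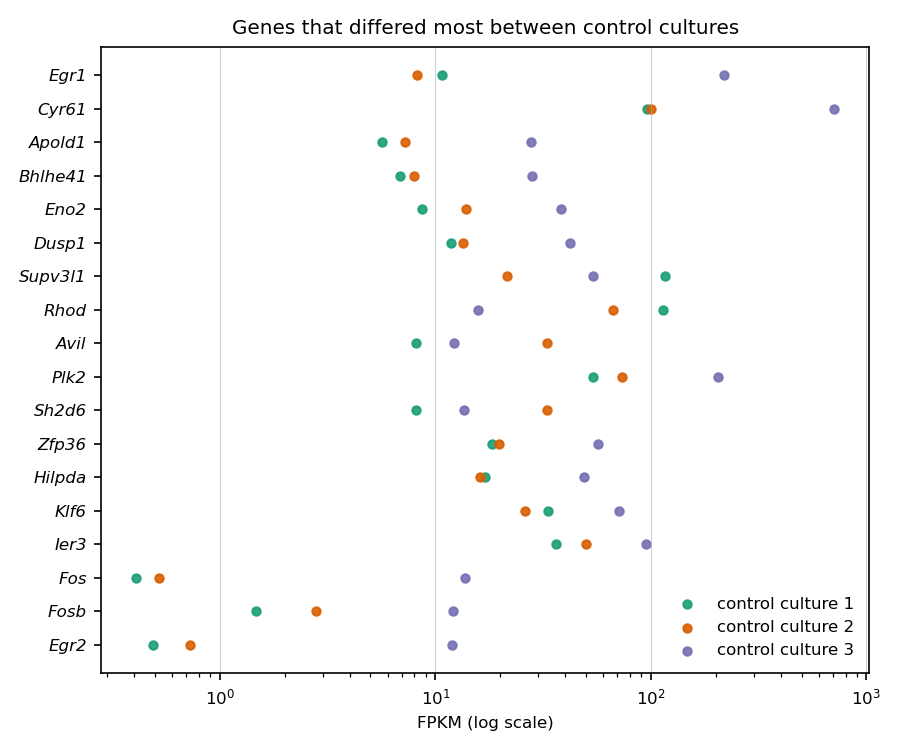
FPKM in each control culture, on a logarithmic axis, for the protein-coding genes with the highest CV (features of 300 nt or less left out) and 5 immediate-early genes added for comparison. Culture 3 lies to the right for Egr1, Cyr61, Fos, Fosb, Egr2, Dusp1 and Plk2, while Avil and Sh2d6 are highest in culture 2 and Supv3l1 and Rhod in culture 1.

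Glycolysis and hypoxia-response genes were also highest in culture 3, by less. All 15 glycolysis genes were highest there, against 33% of included protein-coding genes. The median deviation was 0.14 on the log2(FPKM + 1) scale from the mean of the 3 cultures. The glucose transporter Slc2a1 was at 143, 149 and 251, and hexokinase 2, Hk2, at 28.7, 44.3 and 91.9. Lactate dehydrogenase, Ldha, was at 547, 492 and 598, and Gapdh at 1582, 1503 and 1736, so the members differed unequally. Of the 15 included hypoxia-response genes 12 were highest in culture 3, with a median deviation of 0.31. Ero1l, an oxidase of the endoplasmic reticulum, was at 228, 248 and 357, and adrenomedullin, Adm, a vasodilator peptide, at 43.0, 61.6 and 86.1. The clock genes gave 10 of 12 highest in culture 3, with a median deviation of 0.20. One of the 10, the factor Dbp, was included only through culture 3, and without it the count was 9 of 11. Nr1d1 (REV-ERB alpha) was at 6.81, 7.87 and 11.2 and Arntl (BMAL1) at 5.30, 8.27 and 6.88, of which the latter was highest in culture 2. When each library was rescaled to an equal sum, 47.2% of included protein-coding genes were highest in culture 3, in place of 33%, and 19.5% in culture 1, in place of 32.3%.

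Mitochondrially encoded transcripts followed another order, with 12 of the 14 included members highest in culture 1, against 32.3% of included protein-coding genes. The cytochrome oxidase subunit mt-Co1 was at 3534, 2464 and 1791 FPKM and mt-Co2 at 3657, 2544 and 1914, while the ribosomal RNA mt-Rnr1 (1294, 1747 and 682) was highest in culture 2. Chromosome M took 13.5%, 10.9% and 9.40% of the summed FPKM in cultures 1 to 3. Depth as read from the FPKM steps was lowest in culture 1 and highest in culture 3. The part of depth and of the mitochondrial share in the differences between cultures was not tested. Ribosomal protein genes, all 42 included beside 48.8% of all protein-coding genes, differed little, with a median CV of 3.96%.

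**Figure D5:**
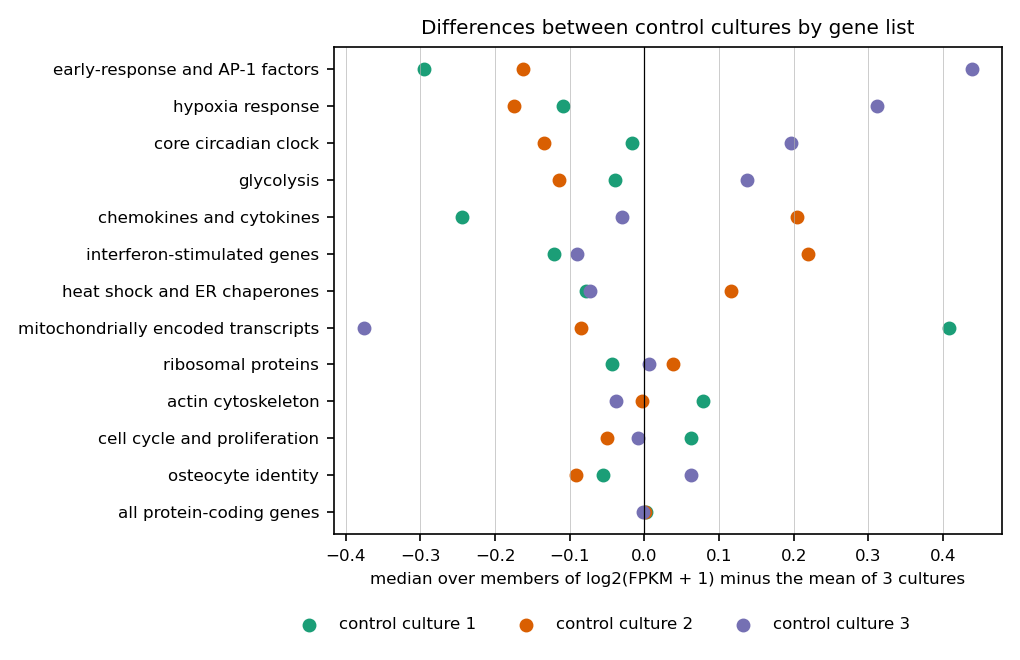
Median over the included members of each list of log2(FPKM + 1) in a culture minus the mean of the 3 cultures, 1 point per control culture. Culture 3 is highest for early-response, hypoxia, clock and glycolysis genes, culture 2 for chemokine, interferon-stimulated and chaperone genes, and culture 1 for mitochondrially encoded transcripts, while all included protein-coding genes center on 0.

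Sensory receptor families of other tissues were nearly all under the threshold. Of 1118 olfactory receptor genes 1 was included (Olfr56, 1.37, 1.60 and 1.34 FPKM), and of 324 vomeronasal receptor genes none was. Of 50 keratins 2 were included, Krt80 (6.17, 3.72 and 5.88) and Krt13 (0.943, 1.71 and 2.67). Over all protein-coding genes the share was 48.8%. Zinc finger genes named Zfp gave 240 of 357, and solute carriers gave 167 of 368, which is near that share. By chromosome, the share of protein-coding genes that were included ran from 34.2% on X to 56.9% on chromosome 8 among the nuclear chromosomes other than Y.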

How the data were processed

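RNA from 6 MLO-Y4 cultures was sequenced for 50 cycles, single-end, per the labels' protocols, and the 3 non-flow control libraries were analysed. The authors deposited FPKM in 2 tables. Per the submitters' processing notes, the tools were Cufflinks 2.2.1, TopHat2 2.0.9 and CASAVA 1.8.2, on mm10. For annotation and strand use, nothing is given in the sources used. The table with all columns titled was used. In the other, 2 columns matched no library and were left out, and its control columns served as an alternative.

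Features were annotated from GENCODE M21 (37604 of 39174 matched by identifier, 678 by symbol). Depth was read from FPKM steps of genes with transcripts over 800 nt, with 200 nt taken off the length: 76.1% to 76.6% of their values lay within 0.02 of whole reads. The script was tested on simulated data made with the same 200 nt, so the test does not check that length. CV is SD over mean of linear FPKM. With 1 group there was no test. The control libraries are separate cultures collected on separate days.

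Members, 41 gene lists and the naming rule were chosen with earlier results of these data known. The rule takes up to 6 highest members per list and any needed to account for it, the 30 highest protein-coding genes, the 15 most and 10 least variable at 10 FPKM or more, 2 on each side of 1 FPKM, and 14 fixed bone genes. Lists share members. Alternatives were thresholds, scaling, filters, the other table and omission of each culture. Python 3.11.15 and pandas 2.3.3 were used. Some list members are not reported here.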

Additional observations from a re-analysis of the deposited data

How the results depend on the processing

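No paired analysis was possible because 1 group was described and no test was made. The share of FPKM in the 100 highest features (34.3%) was 29.5% over protein-coding genes only, 27.2% over features longer than 300 nt and 41.1% in the other deposited table. The median CV over included features (10.8%) was 8.47% at 10 FPKM or more and 20.3% with no filter, and 8.02% to 9.32% with 1 culture left out. The number of protein-coding genes with a CV over 30% (232) was 819 at 1 FPKM or more. The number of included genes (11864) stayed within 1.5 times under every alternative run, from 9249 at a threshold of 5 FPKM to 12902 at 0.5.

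Alternatives added after the data were seen counted list members highest in 1 culture. In the other deposited table the clock genes gave 7 of 12 for culture 3 and the chemokines 10 of 22 for culture 2. The shares over protein-coding genes in that table were 34.5% for culture 3 and 28.2% for culture 2. Of 517 named genes in both tables, 495 had means within 1.5 times. Among the exceptions were Hif1a (3.20 times), Bglap2 (0.620 times), Egfl7 (0.576 times), Supv3l1 (0.334 times), Rhod (1.93 times) and Gm11032 (8.46 times the value here). Depth limits genes listed at 0 to the 3-read level, and FPKM of features of 300 nt or less, 17.7% of the sum, rests on a large length correction.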

Other observations

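Short non-coding features had the highest FPKM of the table. Gm22133, annotated as a miRNA gene of 109 nt, was listed at 29386, 30533 and 32386 FPKM in cultures 1 to 3. The long non-coding RNA Gm26924, with a transcript of 1831 nt, was at 10339.8, 4879 and 4133 FPKM, and mmu-mir-6236 at 13861, 7902 and 6232. Both were highest in culture 1.

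Transcripts that mark the sex chromosomes were low. Xist was at 0.00317, 0.00942 and 0.124 FPKM, and of 4 Y-linked genes Ddx3y and Kdm5d were listed at 0 and the others did not exceed 0.0341. Erdr1, the 1 included gene of 122 assigned to chromosome Y, was at 11.1, 13.8 and 9.89.

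Among the 15 most variable protein-coding genes, Gm11032 and Gm17374 are features of 102 nt whose expected counting CV exceeded the one measured. Supv3l1, a mitochondrial RNA helicase, was at 116, 21.4 and 53.8 FPKM and Rhod, a small GTPase, at 114, 66.4 and 15.7. In the second deposited table Supv3l1 was at 19.6, 24.4 and 19.9 FPKM, so its spread and its high value in culture 1 depended on the table used. Hilpda, a lipid-droplet protein, was at 17.0, 16.1 and 48.9 and Bhlhe41, a clock-related repressor, at 6.83, 7.94 and 28.2.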
